A study of Arabidopsis thaliana with 6 samples.

Results

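Transcripts of 4 proton pump genes were compared between bundle sheath cells (BSCs) and mesophyll cells (MCs) of the Arabidopsis thaliana leaf: the plasma membrane H+-ATPase gene AHA2 (AT4G30190) and the genes of the 3 isoforms of subunit a of the vacuolar-type H+-ATPase, VHA-A1 (AT2G28520), VHA-A2 (AT2G21410) and VHA-A3 (AT4G39080). Each gene was found by its gene code or symbol in the array annotation or in the study's own list of differing genes, and each was measured by 1 probe set, 253609_at, 264080_at, 263764_at and 252932_at in that order, among 22746 Arabidopsis probe sets. The probe set of AHA2 was tied to its gene by the study's list alone. AHA2 and VHA-A1 are on that list, which was chosen on these same arrays, so their direction here is not independent evidence of a difference. The study also measured AHA2 by quantitative real-time PCR on amplified RNA of both cell types. It reports relative levels close to those of its arrays, and does not say whether the RNA came from the same pools. VHA-A2 and VHA-A3 are not on it.

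All protoplasts came from untreated transgenic plants of the ecotype Landsberg (Ler) in which the SCARECROW (SCR) promoter drives the gene of green fluorescent protein (GFP), so both cell types carry the transgene and differ in whether the promoter lights them up. Larger protoplasts without fluorescence were picked by hand as MCs and smaller fluorescent ones as BSCs, which makes the BSC group the cells in which this promoter was active. RNA from 20 protoplasts of 1 cell type was pooled, amplified in 3 rounds and hybridized to 1 Affymetrix ATH1 array, giving 3 BSC arrays, numbered 3, 5 and 7 in the labels, and 3 MC arrays, numbered 4, 6 and 8. In such pools, a transcript carried by fewer of the protoplasts and one at a lower level in each of them cannot be told apart.

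The plasma membrane H+-ATPases, the AHA family in Arabidopsis, are single-polypeptide P-type pumps that use ATP to move protons out of the cell. The membrane potential and the proton gradient that they build drive the uptake of ions, sugars and amino acids by channels and cotransporters, and AHA2 is one of the broadly expressed members. The vacuolar-type H+-ATPase (V-ATPase) is a rotary pump with a soluble V1 sector that hydrolyses ATP and a membrane-embedded VO sector that carries the protons. Subunit a belongs to VO, forms the path of the protons and decides where the pump resides: VHA-A1 places it in the trans-Golgi network and early endosomes, and VHA-A2 and VHA-A3 place it in the tonoplast, the membrane of the vacuole.

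Levels are given as log2(NREL), the log2 of the normalized raw expression level of a probe set, as deposited. A probe set is called higher or lower in BSCs where limma gave an unadjusted p under 0.05 and the fold change was at least 1.5. These are the thresholds of the study, which applied them to an analysis of variance and not to limma. Limma fits 1 linear model for each probe set and shares information on the spread among them. By this rule 114 of 22746 probe sets (0.501%) were called, 32 higher and 82 lower in BSCs. None had a Benjamini-Hochberg adjusted p under 0.05 in limma, 365 had an unadjusted p under 0.05, and the adjusted p from limma rounded to 1 for each of the 4 pump genes. The arrays differed in their own spread: 78 probe sets reached a log2(NREL) of 5 on BSC array 7, against 406 to 1157 on each of the others, and the SD over all probe sets was 0.60 on BSC array 7 and 0.84 to 1.23 on the others. The difference between the 3′ and 5′ probe sets of ubiquitin, a sign of RNA and amplification quality, was 0.90 on BSC array 7 and 3.63 to 4.50 elsewhere. Results of the pump genes that change with this array are given with and without it, and its part in them beyond that was not tested.

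Of the 4 pump genes, VHA-A1 was the 1 that passed the thresholds, and it was lower in BSCs, by 1.56-fold. AHA2 had the widest mean difference, 3.15-fold higher in BSCs, but it did not pass, with BSC array 7 far below BSC arrays 3 and 5. The study reports AHA2 as passing the same thresholds in its analysis of variance. The tonoplast isoform genes VHA-A2 and VHA-A3 had means 1.63-fold and 1.46-fold higher in BSCs and did not pass either.

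**Figure D1:**
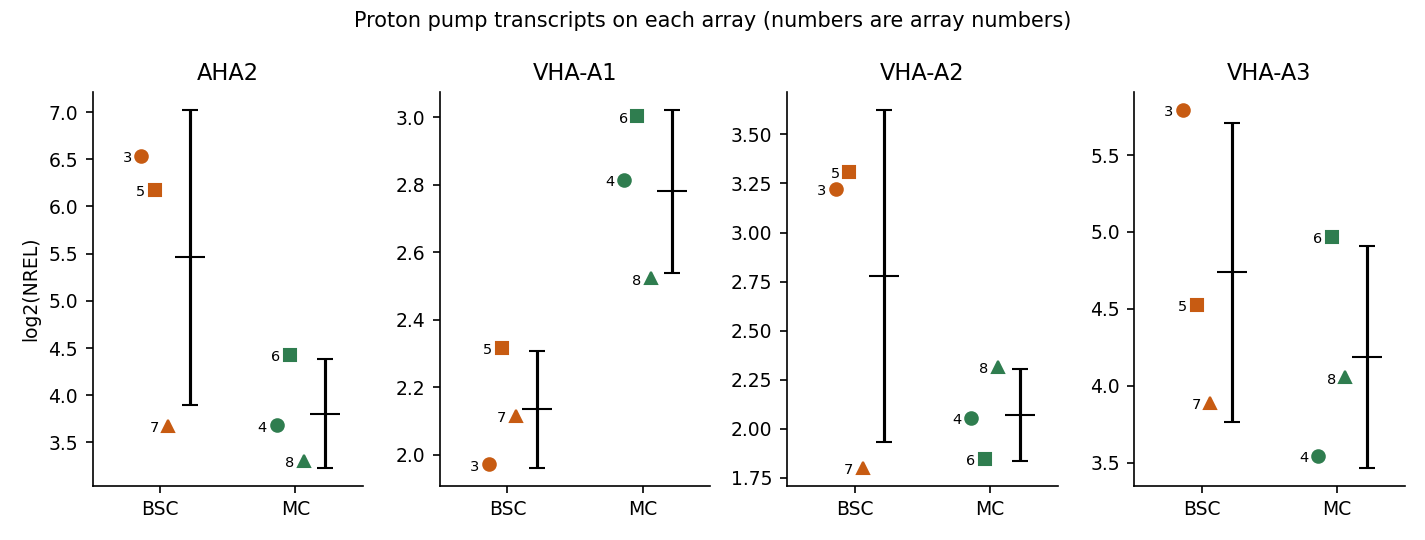
Log2(NREL) of the 4 proton pump genes on each of the 6 arrays. Points carry their array number, the horizontal bar is the mean of 3 arrays and the error bar is 1 SD, and each panel has its own axis that does not start at 0. The cell types are separated for VHA-A1 alone, and BSC array 7 lies far below BSC arrays 3 and 5 for AHA2 and VHA-A2.

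For AHA2, the proton exporter of the plasma membrane, log2(NREL) was 6.54 on BSC array 3, 6.18 on BSC array 5 and 3.67 on BSC array 7, and 3.68, 4.43 and 3.30 on MC arrays 4, 6 and 8. BSC arrays 3 and 5 were far above all MC arrays, whereas BSC array 7 fell among them, just under MC array 4, so that the groups overlapped. The means were 5.46 ± 1.56 in BSCs and 3.81 ± 0.57 in MCs (SD, n = 3 each). The log2 fold change was 1.66 (standard error 0.80, 95% confidence interval -0.33 to 3.65, limma unadjusted p = 0.0872). This fold change ranked 29 from the top among all 22746 probe sets, and the SD of AHA2 in BSCs was larger than that of 96.2% of them. Without BSC array 7 the log2 fold change was 2.55 and AHA2 passed the thresholds (limma unadjusted p = 0.00114, adjusted p = 0.588), in a fit that called 1.47% of all probe sets higher in BSCs. With any other single array left out it was 1.12 to 1.97 and did not pass.

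VHA-A1, the subunit a isoform of the trans-Golgi network, gave 1.97, 2.32 and 2.12 on BSC arrays 3, 5 and 7 and 2.82, 3.0 and 2.52 on MC arrays 4, 6 and 8. Every BSC array was below every MC array, and the 2 nearest, BSC array 5 and MC array 8, were 0.21 apart. A separation of the cell types in either direction was found for 6.0% of all probe sets, with BSCs below MCs in 2.85%. The means were 2.13 ± 0.17 in BSCs and 2.78 ± 0.24 in MCs (SD, n = 3 each). Its log2 fold change was -0.65 (standard error 0.17, 95% confidence interval -1.06 to -0.24, limma unadjusted p = 0.00877). Counted from the lowest, this fold change ranked 747 of 22746, where 82 probe sets were called lower. The fold of 1.56 is close to the threshold of 1.5, and the call was lost through the fold alone without BSC array 3 (log2 fold change -0.56, limma unadjusted p = 0.0273) and without MC array 6 (-0.53, limma unadjusted p = 0.0257). The median of all probe sets was 1.88, 1.97 and 2.06 on BSC arrays 3, 5 and 7, so that VHA-A1 lay just above it on arrays 3 and 7 and further above it on array 5. No detection call was used here, so whether the transcript was above background in BSCs was not tested.

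VHA-A2, a tonoplast isoform, gave 3.22, 3.31 and 1.80 on BSC arrays 3, 5 and 7 and 2.05, 1.85 and 2.32 on MC arrays 4, 6 and 8. As for AHA2, BSC arrays 3 and 5 were above all MC arrays, but here BSC array 7 held the lowest of all 6 values. The means were 2.78 ± 0.85 in BSCs and 2.07 ± 0.23 in MCs (SD, n = 3 each). The log2 fold change was 0.71 (standard error 0.43, 95% confidence interval -0.36 to 1.77, limma unadjusted p = 0.155). Without BSC array 7 the log2 fold change was 1.19 and passed the thresholds (limma unadjusted p = 0.00107, adjusted p = 0.565).

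VHA-A3, the other tonoplast isoform, gave 5.79, 4.53 and 3.89 on BSC arrays 3, 5 and 7 and 3.54, 4.97 and 4.06 on MC arrays 4, 6 and 8. The 2 highest values came from BSC array 3 and MC array 6, the 2 arrays with the most probe sets at a log2(NREL) of 5 or above (1147 and 1157), and the groups overlapped widely. The means were 4.74 ± 0.97 in BSCs and 4.19 ± 0.72 in MCs (SD, n = 3 each), and the log2 fold change of 0.55 was within the spread of the arrays (standard error 0.59, 95% confidence interval -0.90 to 2.00, limma unadjusted p = 0.388). Leaving out 1 array at a time gave 0.02, without BSC array 3, to 0.97, without BSC array 7, and no call.

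Because the arrays differed in their own spread, each probe set was also placed among all probe sets of its array, as the percentile of its level there. This place does not change when an array is stretched or compressed as a whole, and each probe set is compared with itself on the other arrays. By place, AHA2 and VHA-A3 were above MCs on all 3 BSC arrays, VHA-A1 was below on all 3, and VHA-A2 was not separated.

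AHA2 stood at percentile 97.7, 98.7 and 97.1 on BSC arrays 3, 5 and 7 and at 94.9, 93.3 and 92.7 on MC arrays 4, 6 and 8. BSC array 7, which had fallen among the MC arrays by log2(NREL), was above all of them by place, and the groups did not overlap. The means were 97.8 ± 0.81 in BSCs and 93.6 ± 1.12 in MCs (SD, n = 3 each). Of all probe sets, 8.02% had no overlap by place, 3.96% with BSCs above and 4.06% with BSCs below.

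VHA-A1 stood at percentile 57.3, 73.2 and 54.4 on BSC arrays 3, 5 and 7 and at 87.0, 86.2 and 79.5 on MC arrays 4, 6 and 8. The groups did not overlap, and the mean place in BSCs minus that in MCs was -22.6 percentile points. The size of this value cannot be set against the 4.18 points of AHA2, which lies near the top of its arrays. On the log2 scale AHA2 had the wider difference.

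VHA-A3 stood at percentile 96.7, 96.4 and 97.9 on BSC arrays 3, 5 and 7 and at 94.2, 94.8 and 96.2 on MC arrays 4, 6 and 8. Its groups did not overlap by place, although BSC array 5 and MC array 8 were only 0.22 percentile points apart, and BSC array 7, the lowest of the BSC arrays by log2(NREL), was the highest by place. VHA-A2 stood at percentile 87.6, 91.9 and 25.3 in BSCs and at 54.4, 46.7 and 70.8 in MCs. BSC array 7 was the lowest of the 6 arrays by place for VHA-A2, as it was for VHA-A1.

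**Figure D2:**
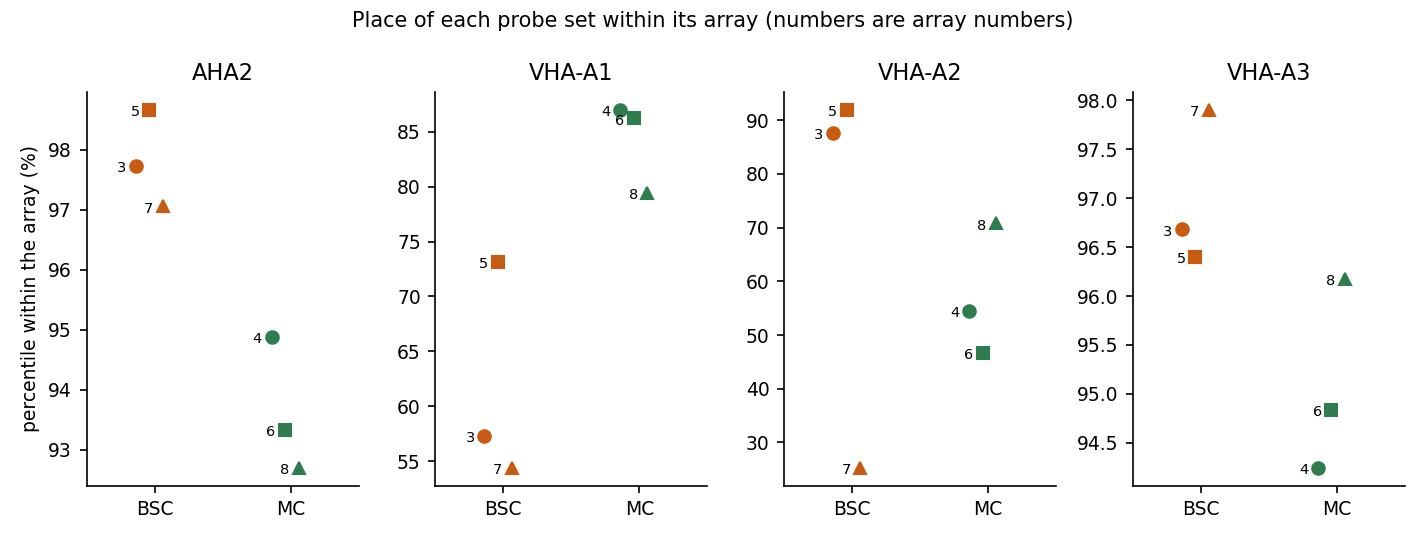
Percentile of the 4 proton pump genes among all Arabidopsis probe sets of each array, with array numbers beside the points and an axis of its own in each panel that does not start at 0. AHA2 and VHA-A3 lie higher on the 3 BSC arrays (97.1 to 98.7 and 96.4 to 97.9) than on the 3 MC arrays (92.7 to 94.9 and 94.2 to 96.2), VHA-A1 lies lower, and VHA-A2 overlaps.

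Quantile normalization, which gives all arrays the same distribution and keeps the order of the probe sets within each, put the same places on a log2 scale and is therefore no separate evidence from the percentiles. AHA2 then gave 5.26, 5.98 and 4.88 on BSC arrays 3, 5 and 7 and 4.09, 3.73 and 3.61 on MC arrays 4, 6 and 8. Each BSC array exceeded each MC array, and the log2 fold change of 1.56 was a call (limma unadjusted p = 0.00257). VHA-A3 gave 4.71, 4.60 and 5.37 against 3.93, 4.08 and 4.52, also without overlap, and its log2 fold change of 0.72 was a call (limma unadjusted p = 0.0351). The same fit called 1.13% of all probe sets, 0.317% higher in BSCs, against 0.501% and 0.141% with the deposited values, and its adjusted p from limma rounded to 1 for both genes. VHA-A1 kept its call at -0.62 and VHA-A2 (0.64) gained none.

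Weighting each array by how closely it follows the fit gave another set of calls. The weights were 6.83 for BSC array 5 and 2.08 for MC array 4, against 0.34 for BSC arrays 3 and 7 each, so that BSC array 5 largely stood for its cell type. AHA2 (2.47) and VHA-A2 (1.11) were then called higher in BSCs, and VHA-A1 (-0.43) lost its call because its fold was under 1.5. This fit called 3.89% of all probe sets, 2.63% higher in BSCs. In all settings that gave a value the log2 fold change of each of the 4 genes kept its direction, and no gene had the same call in all of them. VHA-A3 passed after quantile normalization alone.

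**Figure D3:**
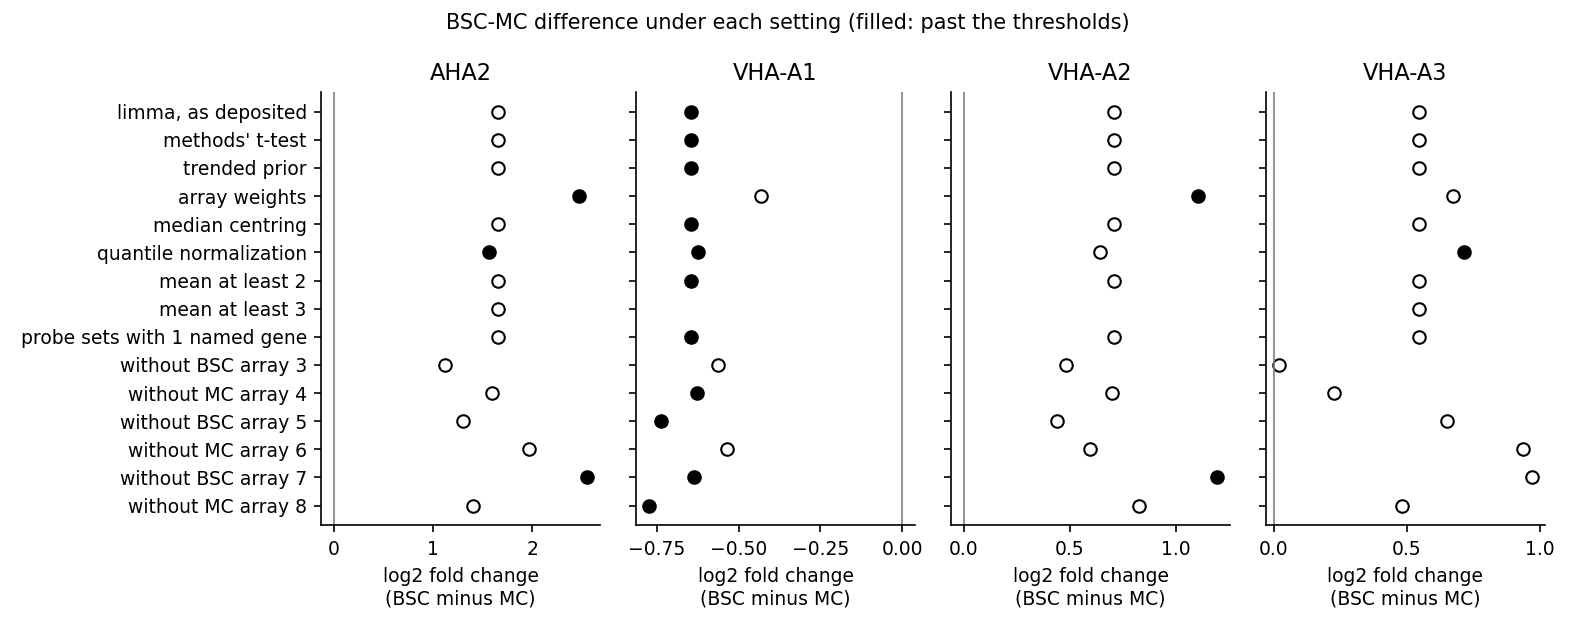
Log2 fold change of the 4 proton pump genes, BSCs minus MCs, under each setting and with each array left out, with a separate axis for each gene and a vertical line at 0. Filled points passed an unadjusted p under 0.05 and a fold of 1.5, and VHA-A1 and VHA-A2 have no point where a mean of at least 3 was required; AHA2 is filled in 3 settings, at 1.56 to 2.55, and all its points lie to the right of 0.

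Isoform was then set against isoform. The difference of 2 probe sets was taken within each array and compared between the cell types, which cancels the binding strength of each probe set. Only the change of that difference from MCs to BSCs is read and not its level. The spread of an array is not cancelled, with an SD of 0.60 on BSC array 7 and 1.23 on BSC array 3 and MC array 6. Its part in the contrasts was not tested. All 6 pairs of the 4 genes were compared by an exact 2-sided permutation test, and 3 against 3 arrays allow no p under 0.1.

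AHA2 minus VHA-A1 was 4.57, 3.86 and 1.56 on BSC arrays 3, 5 and 7 and 0.87, 1.43 and 0.78 on MC arrays 4, 6 and 8. Each BSC array exceeded each MC array, BSC array 7 by a small margin, and the difference of the means was 2.30 on the log2 scale (95% confidence interval -0.28 to 4.89, exact permutation p = 0.1, Benjamini-Hochberg adjusted p = 0.24 over the 6 pairs). On the deposited values this was the 1 pair without overlap. It joins the 2 genes that the study had picked for opposite changes on these arrays. With 1 array left out the difference of the means was 1.68, without BSC array 3, to 3.19, without BSC array 7.

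VHA-A2 minus VHA-A1, a tonoplast isoform against that of the trans-Golgi network, was 1.25, 0.99 and -0.31 in BSCs and -0.76, -1.16 and -0.21 in MCs, in the same array order. BSC array 7 fell between MC arrays 8 and 4, and the interval of the difference of the means, 1.35, included 0 (95% confidence interval -0.20 to 2.90, exact permutation p = 0.2, adjusted p = 0.24). VHA-A3 minus VHA-A1 was 3.82, 2.21 and 1.77 in BSCs and 0.73, 1.96 and 1.53 in MCs. Only BSC array 7 and MC array 6 were out of order, and the difference of the means was 1.19 (95% confidence interval -0.81 to 3.19, exact permutation p = 0.2, adjusted p = 0.24). Without BSC array 7 these differences were 1.83 for VHA-A2 minus VHA-A1 and 1.61 for VHA-A3 minus VHA-A1, and without BSC array 3 the latter was 0.58. After quantile normalization they were 1.26 for VHA-A2 minus VHA-A1 and 1.34 for VHA-A3 minus VHA-A1, and AHA2 minus VHA-A1 was 2.19. VHA-A3 minus VHA-A1 then no longer overlapped between the cell types, whereas VHA-A2 minus VHA-A1 still did.

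The 2 tonoplast isoforms were not shown to differ from each other in their response. VHA-A3 minus VHA-A2 changed by -0.16 from MCs to BSCs, with a 95% confidence interval of -1.94 to 1.63 that also allows a large difference either way (exact permutation p = 0.9, adjusted p = 0.9). The sign of this value turned with the setting, to 0.077 after quantile normalization, 0.21 without BSC array 5 and 0.34 without MC array 6. AHA2 against VHA-A2 (0.95) and against VHA-A3 (1.11) also overlapped between the cell types on the deposited values. Each had an exact permutation p of 0.2 and an adjusted p of 0.24. After quantile normalization AHA2 against VHA-A2 (0.92) no longer overlapped, whereas AHA2 against VHA-A3 (0.85) still did. The first was 0.58 without MC array 8 and 0.64 without BSC array 3, and the second was 0.65 without BSC array 5, whereas without BSC array 7 they were 1.36 and 1.58.

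**Figure D4:**
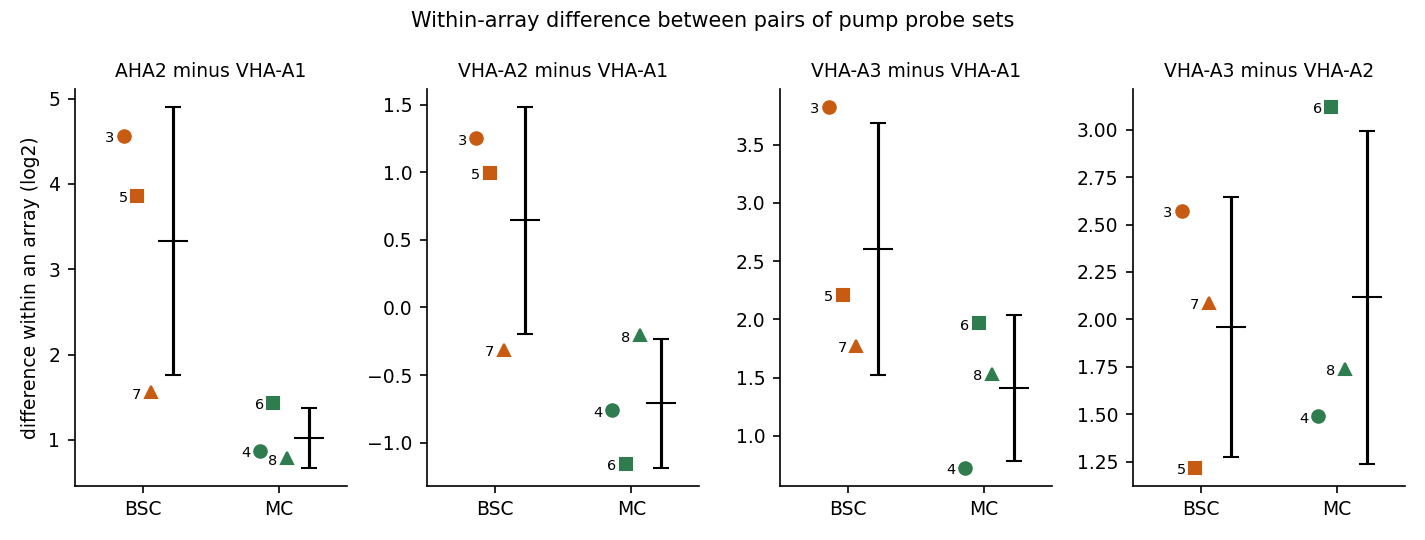
Within-array log2 difference of 4 pairs of pump genes on the 6 arrays, with array numbers, means and error bars of 1 SD (3 arrays per cell type), each panel on its own axis. AHA2 minus VHA-A1 is higher on all BSC arrays (1.56 to 4.57) than on all MC arrays (0.78 to 1.43). In the other panels the cell types overlap on these deposited values.

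Most relatives of the 4 genes had no named probe set of their own in the annotation used here and were not analysed, which does not mean that the array lacks them. Of 11 plasma membrane H+-ATPase genes listed, AHA2 was the 1 with a named probe set here. The study itself reports AHA6 and AHA7 from these arrays. Both were lower in BSCs, the direction opposite to AHA2, by small folds under its fold threshold. They come from a list that the study chose for differing on these arrays. The levels it gives lie near the array medians, 1.88 on BSC array 3 to 2.06 on BSC array 7, for AHA6 and below them for AHA7. They do not describe the family. Whether the AHA2 probe set also binds transcripts of close AHA relatives was not tested. Of 28 V-ATPase genes listed, 9 had a probe set of their own, 3 of 14 in the V1 sector and 6 of 14 in the VO sector. None of the 9 was called higher in BSCs and 2 were called lower, both in VO, against 0.141% and 0.361% of all probe sets. Over the 9 genes the median log2 fold change was -0.02, with 4 above 0 and 5 below, beside a median of 0.01 over all probe sets.

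The second gene called lower was AT4G32530, which was placed on the VO list from general knowledge and carries no other name in the annotation. Its log2(NREL) was 2.26, 1.63 and 2.57 on BSC arrays 3, 5 and 7 and 2.83, 4.21 and 3.14 on MC arrays 4, 6 and 8. All BSC arrays were below all MC arrays, with means of 2.15 ± 0.48 and 3.39 ± 0.73 (SD, n = 3 each). The log2 fold change was -1.24 (standard error 0.43, 95% confidence interval -2.30 to -0.19, limma unadjusted p = 0.0283). By place the same order held, with percentiles of 71.9, 15.1 and 80.7 in BSCs and 87.2, 92.7 and 91.3 in MCs. The call was lost without BSC array 3 (-1.30, limma unadjusted p = 0.0541) and without BSC array 5 (-0.98, limma unadjusted p = 0.0872). Unlike VHA-A1, this gene is not on the study's list.

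The V1 sector showed no call. VHA-D and VHA-F, subunits of the central stalk that turns when ATP is hydrolysed, had log2 fold changes of -0.02 and 0.17. AT3G42050, placed on the V1 list from general knowledge, had 0.23. The 2 remaining VO genes, AT5G55290 and AT4G26710, had -0.23 and -0.05. VHA-A2 (0.71) and AT4G32530 (-1.24) were the ends of the range of the 9 genes.

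**Figure D5:**
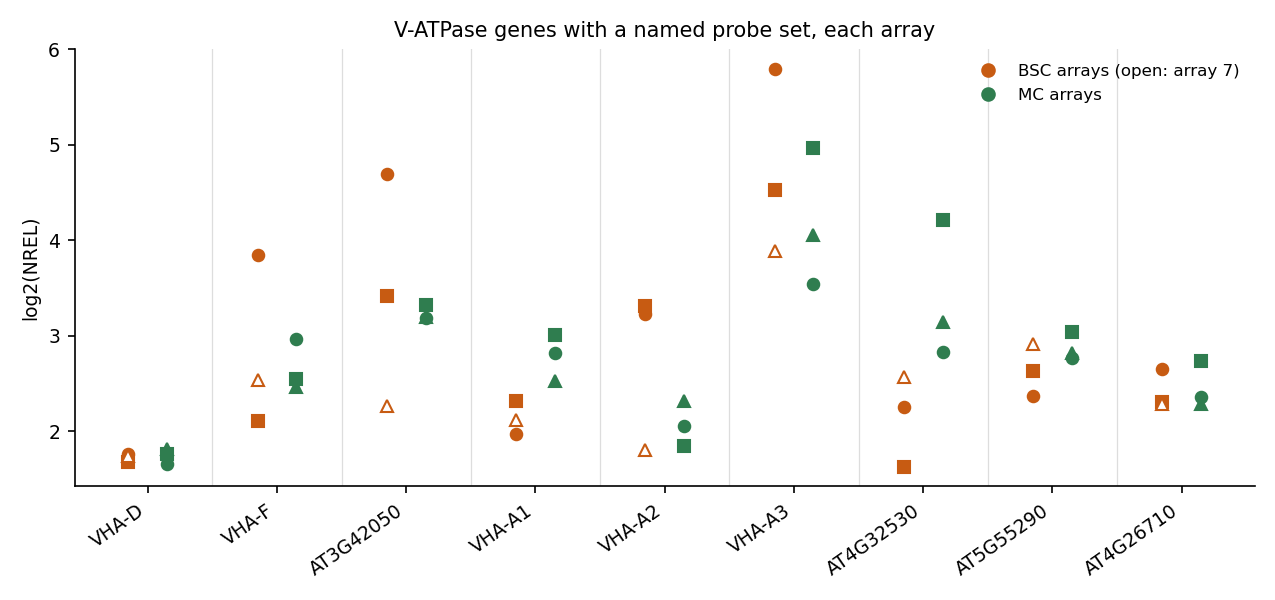
Log2(NREL) of the 9 V-ATPase genes with a named probe set, on each array; circles, squares and triangles are arrays 3, 5 and 7 for BSCs and 4, 6 and 8 for MCs, and the axis does not start at 0. Only VHA-A1 and AT4G32530 have all BSC points below all MC points, and levels of different genes cannot be compared because each probe set binds differently.

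AT4G32530, called lower in BSCs (-1.24), was listed as a gene of the proteolipid ring of VO, which turns with the central stalk and carries the protons. The ring was also covered by 3 probe sets that each match several ring genes, AT4G38920, AT4G34720 and AT2G16510, and cannot be assigned to 1 of them. The log2(NREL) of these 3 shared probe sets was 5.92 to 7.42 on BSC array 3 and MC array 6 and 2.62 to 4.75 on the other 4 arrays, in both cell types. BSC array 3 and MC array 6 were also the arrays with the most probe sets at a log2(NREL) of 5 or above. The log2 fold changes of the 3 shared ring probe sets were -0.04, -0.07 and 0.02. Their confidence intervals were wide, at -3.15 to 3.07, -3.12 to 2.99 and -2.76 to 2.80, and allow a large difference either way. All 3 match the same genes, so they are not separate evidence. Whether their values follow the spread of the arrays or the cell type was not tested. A probe set shared by AT3G28715 and AT3G28710 had values of 1.60 to 2.27 and a log2 fold change of 0.08.

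Known regulators of plasma membrane H+-ATPases were covered in part. Clade D protein phosphatases of type 2C remove the activating phosphate of the pump, and 4 of 9 listed genes had a probe set; none was called, and their log2 fold changes were -0.24 (AT3G12620) to 0.83 (AT3G51370). AT3G51370 had its highest value, 5.11, on BSC array 3, and its other 5 values were 2.39 to 3.06. Of 5 kinases and other regulators listed, PSY1R, a receptor kinase that phosphorylates AHA2, had a log2 fold change of -0.17, and FER, a receptor kinase reported to act on AHA2, had -0.12. Neither was called, and both had values near the array medians, 1.70 to 2.23 for PSY1R and 1.70 to 1.98 for FER. No named probe set was found for 12 genes of 14-3-3 proteins, which bind and activate the pump, for 3 genes of proton-pumping pyrophosphatases of the tonoplast and other membranes, or for 12 genes of CAX and NHX antiporters, which use the proton gradient of the vacuole and endosomes.

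The cell types themselves could be checked with few markers. SCL23, a transcription factor of the bundle sheath and a relative of SCR, was the 1 of 4 bundle sheath markers with a named probe set. Its log2(NREL) was 1.81 to 2.03 in BSCs and 1.89 to 2.08 in MCs, without separation. These values lie near the median of all probe sets, 1.88 on BSC array 3 to 2.06 on BSC array 7. At such a level SCL23 cannot tell whether the BSC arrays hold bundle sheath RNA. RCA, the activase of Rubisco, was the 1 of 6 mesophyll markers, with 8.34, 7.57 and 3.66 on BSC arrays 3, 5 and 7 and 6.69, 8.98 and 6.15 on MC arrays 4, 6 and 8. The RCA values overlapped between the cell types, with BSC array 7 the lowest of all. The phloem marker SWEET11 (2.43 to 3.80 in BSCs, 2.78 to 3.55 in MCs) and the guard cell marker FAMA (1.81 to 2.35 and 1.83 to 1.98) overlapped too, each the 1 named gene of its list (5 and 4 genes), and none of these markers was called. FAMA also lay near the middle of its arrays, at percentile 34.7 to 70.0. Xylem and epidermis markers (3 genes each) had no named probe set. The study reports PSBQA higher in MCs by quantitative real-time PCR, and most of its differing chloroplast genes lower in BSCs on these arrays. The part of other cell types in the pump results was not tested.

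For each pump gene, the named genes with the most similar profile over the 6 arrays were found by centring every probe set on its own mean and taking the root mean square (RMS) difference, among 13481 other probe sets with 1 named gene. PDE318 was nearest to AHA2, with an RMS difference of 0.20, beside the 1.27 by which AHA2 itself varied about its mean. PDE318 gave 5.87, 5.71 and 3.25 on BSC arrays 3, 5 and 7 and 2.87, 3.46 and 2.50 on MC arrays 4, 6 and 8, and it too is on the study's list. BSC arrays 3 and 5 stood above the rest as for AHA2, and BSC array 7 fell below MC array 6. Next came AT4G34450 (0.28) and GSA1 (0.32), an aminotransferase of tetrapyrrole synthesis.

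VHA-A1 was followed most closely by ALF4, a gene needed for lateral root formation (0.10), AT3G58050 (0.13) and AT3G19900 (0.14), beside its own variation of 0.37. All 3 were lower on every BSC array than on every MC array, an order found for 2.85% of all probe sets. They were picked for their closeness to VHA-A1, which has this order, so sharing it is no separate evidence. ALF4, which is also on the study's list, gave 1.61, 1.82 and 1.42 on BSC arrays 3, 5 and 7 and 2.32, 2.56 and 2.05 on MC arrays 4, 6 and 8. The nearest to VHA-A2 were AT3G56160 (0.14), AT5G62580 (0.16) and AT4G35940 (0.21), beside its own 0.62, and those to VHA-A3 were AT2G39260 (0.20), AT2G41250 (0.21) and AT5G47890 (0.22), beside 0.75. How many genes followed as closely differed: probe sets within an RMS difference that is 50% of the gene's own variation numbered 109 for VHA-A3, 42 for AHA2, 28 for VHA-A1 and 12 for VHA-A2. The 6 arrays share their differences in spread among all probe sets, so these counts are a description of the arrays.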

How the data were processed

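RNA of 3 BSC pools and 3 MC pools was measured on 6 ATH1 arrays. The authors state that they normalized and summarized the scanner files with the robust multi-average (RMA) method in Partek, and the deposited values are taken as their log2 summaries. The submitters' processing notes name Partek 6.6, and the paper names another version. The deposited arrays do not share 1 distribution, with an SD of 0.60 on BSC array 7 and 1.23 on MC array 6. They were thus not quantile-normalized together as deposited, and the sources used here do not say why. The main results rest on these values. Arrays were grouped by their labels, and the pools are the study's biological replicates. The number of arrays limits the precision.

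Names came from the annotation of the array, brought up to date through the gene numbers of TAIR10.1. Of 22810 probe sets, 64 controls were left out, 13513 had 1 gene (13436 matched), 503 had several, and 46 were named only through the study's list. A 2-sided test with lmFit and eBayes from limma 3.58.1 (R 4.3.3) was run on all 22746 probe sets, with Benjamini-Hochberg adjustment. The study's analysis of variance was not repeated, as its factors are not given in the sources used here. The methods' t-test, with cell type alone, gave an unadjusted p of 0.159 for AHA2 and 0.0199 for VHA-A1. The study reports both under 0.05. Why the results for AHA2 differ was not tested. Percentiles were taken among the 22746 probe sets of an array. Confidence intervals are 95%. The scripts were tested on simulated data. Figures were drawn with matplotlib 3.10.9.

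The members and lists were chosen with earlier results of these data known. Named genes were the 4 pump genes, of each list the genes past the thresholds, the highest and lowest log2 fold change and the highest mean, and for each pump gene the 3 nearest profiles; of several probe sets of a gene, the one with the highest mean was taken. AT5G55290, AT4G26710, the probe sets of several genes and the markers were named beyond this rule. Results were recomputed with filters on mean level, with array weights, with a trended prior, after median centring or quantile normalization, on probe sets with 1 named gene, by the methods' t-test, and without each array. The counts of V-ATPase genes, the settings of AT4G32530 and the count of probe sets without overlap by place with fewer arrays were chosen after seeing the data. No sequences or genome coordinates were used.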

Additional observations from a re-analysis of the deposited data

How the results depend on the processing

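The sign of the log2 fold change of AHA2, VHA-A1, VHA-A2 and VHA-A3 did not turn in any setting that gave a value, but no call held in all of them. AHA2 gained its call with array weights (2.47) and quantile normalization (1.56), and ran from 1.12 to 2.55 with an array left out, a call only without BSC array 7 (2.55). VHA-A1 lost it with array weights (-0.43) and without BSC array 3 or MC array 6 (-0.77 to -0.53 over the arrays left out). VHA-A2 gained it with array weights (1.11) and without BSC array 7 (0.44 to 1.19), and VHA-A3 with quantile normalization (0.72; 0.02 to 0.97). VHA-A3 minus VHA-A2 turned from -0.16 to 0.077 after quantile normalization and ran from -0.47 to 0.34 with an array left out. The number of probe sets past the thresholds, 114, was 41 in the methods' t-test, 885 with array weights, 256 after quantile normalization and 22 at a mean of at least 3, and 90 to 418 with an array left out (249 without BSC array 3, 418 without BSC array 7, 180 without MC array 8). The percentile difference of VHA-A2 ran from -0.88, without BSC array 5, to 32.4, and that of AHA2 from 3.72 to 4.80. V-ATPase genes called lower in BSCs numbered 0 to 2 and those called higher 0 to 1 with an array left out. AT4G32530 also lost its call in the methods' t-test and ran from -1.53 to -0.83. VHA-A1 and VHA-A2 have no value under the filter at a mean of 3. No paired analysis was run, because the labels do not say which BSC and MC pools belong together. The study states that both cell types were extracted together, so a pairing may exist that the labels do not give. Beyond fewer arrays or probe sets, the cause of these changes was not tested.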
